A study of Mus musculus with 12 samples.

Results

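The antioxidant genes of the NRF2 pathway were followed in pancreatic neuroendocrine tumors (PanNETs) of RIP1Tag2 mice. The 10 genes, Nfe2l2, Hmox1, Nqo1, Gclc, Gclm, Gsr, Txnrd1, Srxn1, Prdx1 and G6pdx, were chosen by symbol, with earlier results of these data known. They were 10 of the 38924 gene identifiers in the count tables, and all 10 were among the 16645 genes that passed the filter on low counts.

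RNA had been sequenced from 12 tumors, 4 in each of 3 groups, to examine sunitinib alone and sunitinib combined with rapamycin against sham treatment. All 12 came from mice of the C57Bl6 strain that carry RIP1Tag2, a transgene in which the rat insulin promoter drives a viral oncogene in pancreatic beta cells. The 4 control tumors (tumors 1, 2, 3 and 4) were from mice given saline. The 4 sunitinib tumors (tumors 5, 6, 8 and 12) were from mice given sunitinib, an inhibitor of VEGF and PDGF receptor kinases. The 4 R+S tumors (tumors 4, 5, 7 and 10) were from mice given rapamycin, an inhibitor of mTOR complex 1, together with sunitinib. Treatment started at 15.5 weeks of age and lasted 4 days per the labels. Tumor numbers are those of the labels, and the same number in different groups does not mark the same animal. All 4 control titles share 1 prefix, 3 sunitinib titles share a different one and 2 R+S titles share yet another. No prefix occurred in more than 1 group, so what the prefixes stand for and the treatments cannot be told apart. The labels do not say whether the tumors of a group came from separate mice, so p-values measure only the spread between these tumors.

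NRF2, the protein encoded by Nfe2l2, is a transcription factor that KEAP1 holds in the cytoplasm and delivers for degradation. Oxidants and electrophiles modify KEAP1, NRF2 then accumulates in the nucleus, pairs with small MAF proteins and binds antioxidant response elements near its target genes, from which BACH1 can displace it. Its targets make and recycle glutathione, reduce thioredoxin and peroxiredoxins, detoxify quinones, degrade heme and supply NADPH. Pancreatic beta cells are known for low levels of several antioxidant enzymes. Because NRF2 is controlled mainly through its degradation, the transcript of Nfe2l2 is not a measure of its activity.

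Counts on genes summed to between 31872342 and 44215054 per tumor. The 12 beta-cell markers reached a summed level of 41451 to 66859 normalized CPM (read counts scaled to the effective library size of each tumor) in the control tumors and 47368 to 72701 in the R+S tumors, whereas the sunitinib tumors ranged from 8744 in tumor 6 to 84140 in tumor 12. In tumor 6 the hormone genes Ins1, Ins2 and Iapp were at 338, 784 and 487 CPM, the lowest of all 12 tumors, while its Chga (2849 CPM) lay within the control range and its Chgb (4075 CPM) above every control. Across genes, tumor 6 correlated with the other sunitinib tumors at r = 0.87 to 0.90, and the other pairs within a group at 0.96 to 0.99. The 12 acinar markers, genes of the exocrine pancreas, summed to 3.17 to 94.9 CPM in the controls, 10264 to 37395 in the sunitinib tumors and 2564 to 15767 in the R+S tumors. Endothelial markers summed to 461 to 634, 46.3 to 81.4 and 98.9 to 127 CPM in the same order. No marker was at 0 in every tumor of a group. In bulk tumor RNA, fewer cells of a type and less RNA per cell cannot be told apart.

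The element that NRF2 binds has the core TGACNNNGC, and the matches to it close to the transcription start are printed because they are the letters that NRF2 with a small MAF can recognize. Windows of 300 bases, 250 before and 50 after the start site, were given by RefSeq on GRCm38.p6 for 7 of the 10 genes. Hmox1, Gclc and Gsr had no window and were not searched. The core occurred on either strand in 6 of the 9 windows of the 7 genes and in 12.4% of all 32851 windows of that length. Of these 7 genes, all but Nqo1 had a window with it. Bases outside the windows were not searched, so a gene without a match may have the core elsewhere. Each site is written 5′ to 3′ on the strand that carries the core, with the core in capitals and 10 bases on each side.
Nfe2l2: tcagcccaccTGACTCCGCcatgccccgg
Gclm: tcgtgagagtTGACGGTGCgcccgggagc
Txnrd1: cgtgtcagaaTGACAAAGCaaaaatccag
Srxn1: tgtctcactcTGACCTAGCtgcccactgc
Prdx1: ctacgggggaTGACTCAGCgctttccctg
G6pdx: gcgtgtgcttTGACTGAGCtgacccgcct

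The Nfe2l2 site lay at chr2:75704885-75704913 on the minus strand, with its core 240 to 232 bases before the start site. The core of the Gclm site, at chr3:122245413-122245441 on the minus strand, was 134 to 126 bases before the start, and that of Prdx1, at chr4:116685456-116685484 on the minus strand, 133 to 125 bases before it. Txnrd1 has 3 start sites in the table, and the site belonged to the second of them, at chr10:82859104-82859132 on the minus strand and 92 to 84 bases upstream. In G6pdx the core lay 57 to 49 bases before the start, at chrX:74428919-74428947 on the plus strand. The Srxn1 core was the only one of the 6 after the start site of its window, at bases 29 to 37, at chr2:152105542-152105570 on the minus strand. By the gene positions given below, the Txnrd1 and G6pdx sites also lay inside their genes. The cores of hypoxia response elements, ACGTG or GCGTG, occurred on either strand in 6 of the 9 windows, those of 4 genes, and in 43.8% of all windows. None of the 6 cores printed shared a base with such a match. These matches describe letters in the windows and no binding was measured.

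Levels of different genes are compared only per kilobase of exon. In the control tumors Prdx1 had the highest level, 99.5 ± 17.2 CPM per kb (SD, n = 4), and Nqo1 followed with 69.0 ± 16.3, with overlapping tumors. A group of 5 genes came next, from Srxn1 at 30.8 ± 2.96 CPM per kb through Hmox1 at 26.9 ± 6.37, Gclm at 25.1 ± 2.6 and Txnrd1 at 23.7 ± 2.61 to Gsr at 20.6 ± 4.66, in which each gene overlapped the next. Gclc at 11.6 ± 0.856 and Nfe2l2 at 11.5 ± 0.447 CPM per kb were not separable from each other and lay below that group without overlap. G6pdx was lowest, at 8.89 ± 1.49 CPM per kb, with no tumor as high as the lowest tumor for Nfe2l2. All other values are CPM of 1 gene across tumors, not per kb.

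**Figure D1:**
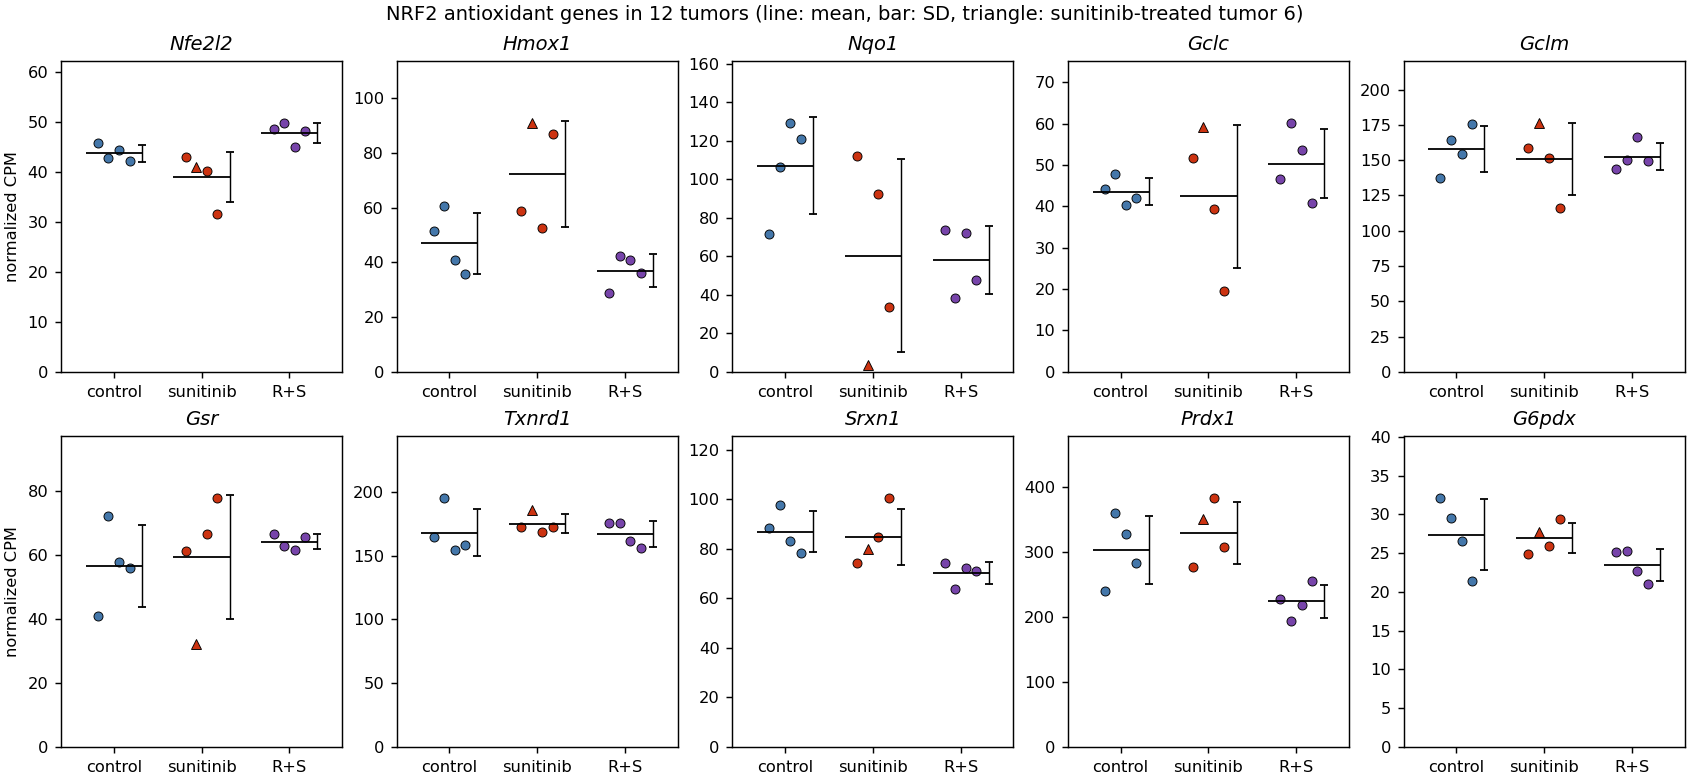
Normalized CPM (y axis, linear from 0) of each of the 10 genes in each tumor of the control, sunitinib and R+S groups (x axis), with the mean as a line, the SD as a bar and sunitinib tumor 6 as a triangle. Hmox1 was lower in every R+S tumor (28.8 to 42.4 CPM) than in any sunitinib tumor (52.6 to 90.9 CPM), and Nqo1 was at 3.68 CPM in sunitinib tumor 6 and at 33.8 CPM or more in the other tumors.

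Sunitinib was compared with control, R+S with control and R+S with sunitinib, and each of these 3 comparisons shares tumors with the other two. In edgeR's quasi-likelihood test with Benjamini-Hochberg adjustment over all 16645 genes, 1 of the 30 tests of these genes passed an adjusted p of 0.05: Hmox1 was lower with R+S than with sunitinib. In sunitinib versus control 0 of 10 passed, where 4.48% of all genes did, 1 had an unadjusted p under 0.05 against 19.5% of all genes, and DESeq2 also called 0. In R+S versus control 0 of 10 passed, against 4.16% of all genes, 2 had an unadjusted p under 0.05 against 20.1%, and DESeq2 called 0. In R+S versus sunitinib 1 of 10 passed, against 7.21% of all genes in either direction and 4.58% in the lower direction, and 4 of 10 had an unadjusted p under 0.05, against 30.4%. DESeq2 called 3 of the 10 there, Hmox1 and Prdx1 lower and Nfe2l2 higher, and 3045 of all 16645 genes. The edgeR shares are near those of all genes. The median log2 fold change of the 10 genes was -0.03, -0.13 and -0.06 in the 3 comparisons, and that of all genes tested was 0.03, 0.01 and -0.02.

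The tumors of the groups compared did not overlap for 0 of 10 genes in sunitinib versus control, where this held for 10.9% of all genes (5.17% higher and 5.76% lower). In R+S versus control it held for Srxn1, 1 of 10 against 23.5% of all genes in either direction (11.6% higher and 11.9% lower). Between R+S and sunitinib it held for 4 of 10 against 18.6%. Of these, Nfe2l2 was higher with R+S, where 8.9% of all genes were, and Hmox1, Srxn1 and Prdx1 were lower, where 9.73% were.

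Nfe2l2 encodes NRF2 itself and lies at chr2:75675513-75704641 on the minus strand (GRCm38, as for all gene positions given). Its level was 45.9, 42.7, 44.4 and 42.1 CPM in control tumors 1 to 4, 43.0, 41.0, 40.2 and 31.6 CPM in sunitinib tumors 5, 6, 8 and 12, and 48.6, 49.7, 45.0 and 48.1 CPM in R+S tumors 4, 5, 7 and 10. The R+S tumors were all above the sunitinib tumors, sunitinib tumor 12 was the lowest of all, and the controls lay between with overlap on both sides. The log2 fold change of R+S versus sunitinib was 0.30 (95% interval 0.06 to 0.53) with an adjusted p of 0.096 in edgeR's quasi-likelihood test and an exact permutation p of 0.0286, the smallest that 4 tumors against 4 allow. Groups of 4 tumors without overlap always give this permutation p, so it repeats the separation, which 18.6% of all genes showed in that comparison. DESeq2 gave an adjusted p of 0.0387 for the Nfe2l2 difference between R+S and sunitinib. Against control, the log2 fold change was -0.17 (-0.40 to 0.07) with sunitinib and 0.13 (-0.11 to 0.36) with R+S.

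The 9 genes listed as NRF2 regulators (KEAP1 and its ligase partners, BACH1, the small MAFs, p62 and NRF1) held no call in any comparison. In sunitinib versus control, R+S versus control and R+S versus sunitinib, 1, 0 and 2 of them had an unadjusted p under 0.05 in edgeR. The shares of all genes were 19.5%, 20.1% and 30.4%. The median log2 fold changes of the 9 genes were -0.04, -0.07 and 0.18. They were positive for 4, 4 and 5 of the 9 and negative for 5, 5 and 4, so the list had no common direction. Keap1, singled out after its values were seen, had a log2 fold change of -0.36 with sunitinib versus control (95% interval -0.62 to -0.11, adjusted p = 0.12 in edgeR's quasi-likelihood test) and of 0.29 with R+S versus sunitinib (0.03 to 0.55, adjusted p = 0.128).

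Hmox1 encodes heme oxygenase 1, which degrades heme to biliverdin, iron and carbon monoxide, and lies at chr8:75093621-75100589 on the plus strand. It was at 51.4, 60.6, 40.7 and 35.6 CPM in control tumors 1 to 4. Sunitinib tumors 5, 6, 8 and 12 had 58.8, 90.9, 52.6 and 87.0 CPM. R+S tumors 4, 5, 7 and 10 had 28.8, 42.4, 41.0 and 36.0 CPM. The means were 47.1 ± 11.1, 72.3 ± 19.4 and 37.0 ± 6.15 CPM (SD, n = 4 each). Sunitinib tumors 6 and 12 stood above all others, the highest R+S tumor was below the lowest sunitinib tumor, and the controls overlapped with both treated groups.

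With R+S, Hmox1 fell to 0.512 of its level with sunitinib, a log2 fold change of -0.97 with an SE of 0.22 (95% interval -1.45 to -0.48, adjusted p = 0.0328 in edgeR's quasi-likelihood test). The exact permutation p was 0.0286, the smallest possible. The call was lost when certain single tumors were left out: the adjusted p was 0.0857, 0.0971, 0.0734 or 0.0703 without R+S tumor 4, 5, 7 or 10 and 0.062 without sunitinib tumor 12, with log2 fold changes of -1.09 to -0.84 over all 8 single omissions. When the fit held only the 8 R+S and sunitinib tumors it was 0.0994, whereas without sunitinib tumor 6 it was 0.0413. Against control the log2 fold change was 0.62 with sunitinib (0.14 to 1.10, unadjusted p = 0.0162, adjusted p = 0.152 by edgeR) and -0.35 with R+S (-0.83 to 0.14, adjusted p = 0.405).

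Heme oxygenase 1 is also a product of macrophages that clear red cells and responds to hypoxia in some cells, so the levels of those lists stand beside it. The 12 macrophage markers summed to 631 to 899 CPM in the controls, 291 to 871 in the sunitinib tumors and 416 to 623 in the R+S tumors, with no marker at 0. Of the 12, 1 was lower with R+S than with sunitinib, and 3 and 1 were lower than control with sunitinib and with R+S. Of all genes, 4.58%, 2.55% and 2.61% were lower in these comparisons. Sunitinib tumor 6, with the highest Hmox1 level, had the lowest macrophage sum, 291 CPM. Sunitinib tumor 12, with 87.0 CPM of Hmox1, had the highest macrophage sum of the sunitinib tumors, 871 CPM. The 5 erythroid markers summed to 68.7 to 375 CPM in the controls, 1.66 to 4.81 with sunitinib and 2.96 to 22.2 with R+S. Between the treated groups none of the 5 passed the adjusted threshold and 3 had an unadjusted p under 0.05 in edgeR, against 30.4% of all genes. The 14 HIF targets summed to 388 to 501, 567 to 1378 and 544 to 778 CPM, with 10 higher than control with sunitinib, 5 higher than control with R+S and 6 lower with R+S than with sunitinib. The shares of all genes for these 3 counts were 1.93%, 1.55% and 4.58%. Tumor 6 had the highest HIF sum, 1378 CPM, and sunitinib tumor 12 had 928 CPM. None of the 12 acinar markers passed the test between R+S and sunitinib, although all 12 had lower fitted levels with R+S (median log2 fold change -1.29), and with them left out of the counts the Hmox1 difference was -0.99 (adjusted p = 0.0297 by edgeR). Whether macrophage content or hypoxia had a part in the Hmox1 difference was not tested.

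**Figure D2:**
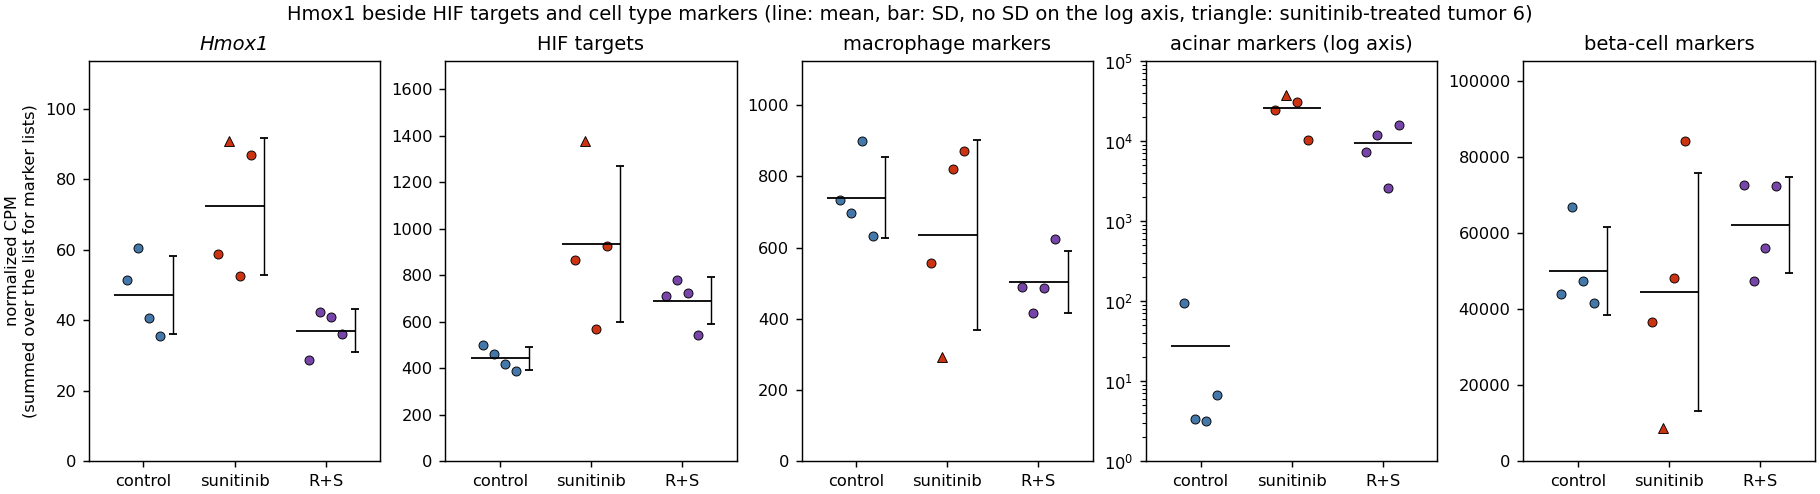
Normalized CPM of Hmox1 (left panel) and the summed normalized CPM of HIF targets, macrophage, acinar and beta-cell markers (other panels, y axes, linear from 0 except for the log axis of the acinar markers) in each tumor of the 3 groups (x axis), with means as lines, SDs as bars where the axis is linear and sunitinib tumor 6 as a triangle. Tumor 6 had the highest Hmox1 level (90.9 CPM) and HIF sum (1378 CPM) and the lowest macrophage (291 CPM) and beta-cell (8744 CPM) sums. Sunitinib tumor 12, with 87.0 CPM of Hmox1, had the highest macrophage sum of the sunitinib tumors (871 CPM).

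The 3 tested genes whose log2 CPM was most like that of Hmox1 over the 12 tumors, among 10356 genes with a mean log2 CPM of at least 3, were Lonp1 (Pearson's r 0.92, Spearman's rho 0.94), Nop2 (0.92 and 0.85) and Hspa9 (0.92 and 0.93). Lonp1 encodes a mitochondrial protease, Nop2 an RNA methyltransferase of the nucleolus and Hspa9 the mitochondrial chaperone mortalin. Within the 4 control, 4 sunitinib and 4 R+S tumors r was 0.92, 0.87 and 0.64 for Lonp1, 0.99, 0.95 and -0.10 for Nop2 and 0.93, 0.77 and 0.62 for Hspa9. The points share libraries, scaling and the group differences, and the values are a description.

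Nqo1 encodes a quinone reductase and is a widely used NRF2 target, at chr8:107388225-107403206 on the minus strand. Control tumors 1 to 4 had 71.8, 107, 129 and 121 CPM, sunitinib tumors 5, 6, 8 and 12 had 112, 3.68, 92.4 and 33.8 CPM, and R+S tumors 4, 5, 7 and 10 had 73.6, 38.6, 72.4 and 47.6 CPM. Sunitinib tumor 6 was far below every other tumor, although its level still rested on 133 counts, sunitinib tumors 5 and 8 lay within the range of the controls, and 2 R+S tumors lay just above the lowest control. The SD of log2 CPM for Nqo1 was 2.25 among the sunitinib tumors and 0.93 without tumor 6, against 0.38 in the controls and 0.46 in the R+S tumors. Log2 fold changes were -0.83 with sunitinib (95% interval -2.31 to 0.66, adjusted p = 0.531) and -0.88 with R+S (-2.37 to 0.60, adjusted p = 0.499) against control in edgeR's quasi-likelihood test. These intervals are wide enough to hold a 4-fold fall as well as no change. Without tumor 6 the first was -0.43, and with only the 8 tumors of R+S and control in the fit the second was -0.89 with an adjusted p of 0.0422.

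Gclc and Gclm encode the catalytic and the modifier subunit of glutamate-cysteine ligase, the first step of glutathione synthesis. Gclc, at chr9:77754535-77794485 on the plus strand, had 44.3, 47.7, 40.3 and 42.0 CPM in control tumors 1 to 4, 51.7, 59.2, 39.3 and 19.5 CPM in sunitinib tumors 5, 6, 8 and 12, and 46.7, 60.1, 53.6 and 40.8 CPM in R+S tumors 4, 5, 7 and 10. The controls lay close together, and sunitinib tumor 12 was the only tumor of the 12 below 39 CPM. Log2 fold changes were -0.04 (95% interval -0.62 to 0.55) with sunitinib versus control, 0.21 (-0.38 to 0.79) with R+S versus control and 0.24 (-0.34 to 0.83) with R+S versus sunitinib, with adjusted p of 0.952, 0.707 and 0.554 in edgeR's quasi-likelihood test. Without sunitinib tumor 12 the first was 0.20.

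Gclm, at chr3:122245557-122270732 on the plus strand, ranged from 137 to 175 CPM in the controls, 116 to 176 CPM in the sunitinib tumors and 144 to 166 CPM in the R+S tumors, with sunitinib tumor 12 again the lowest. Its log2 fold changes were -0.07 (-0.35 to 0.22), -0.05 (-0.34 to 0.24) and 0.02 (-0.27 to 0.30) in the 3 comparisons. Of its 50-base words 3.92% occur in other genes, and it overlaps a predicted gene on the same strand, so some of its reads may not have been counted.

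Gsr encodes glutathione reductase, which returns oxidized glutathione to its reduced form with NADPH, at chr8:33652523-33698163 on the plus strand. It had 40.9, 72.2, 57.8 and 56.0 CPM in control tumors 1 to 4 and 61.4, 32.3, 66.7 and 77.8 CPM in sunitinib tumors 5, 6, 8 and 12. R+S tumors 4, 5, 7 and 10 had 66.7, 62.8, 61.7 and 65.7 CPM. The lowest and the highest tumor of all 12 were both sunitinib tumors, tumors 6 and 12, and the R+S tumors lay within 5 CPM of each other. Log2 fold changes were 0.07 (-0.45 to 0.59), 0.18 (-0.34 to 0.69) and 0.11 (-0.41 to 0.62) in sunitinib versus control, R+S versus control and R+S versus sunitinib, with adjusted p of 0.894, 0.715 and 0.777 in edgeR's quasi-likelihood test.

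Txnrd1 encodes the cytosolic thioredoxin reductase, at chr10:82833951-82897712 on the plus strand, and overlaps Eid3 on the same strand. Its level was 165, 195, 154 and 158 CPM in control tumors 1 to 4, 173, 186, 169 and 172 CPM in sunitinib tumors 5, 6, 8 and 12, and 175, 175, 161 and 156 CPM in R+S tumors 4, 5, 7 and 10. The 3 groups overlapped throughout. With an SE of 0.10 it was the member measured most closely, and its log2 fold changes were 0.06 (95% interval -0.16 to 0.28), -0.01 (-0.23 to 0.21) and -0.07 (-0.29 to 0.15), so that each interval left out a change of 0.30 in either direction.

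Srxn1 encodes sulfiredoxin, which restores overoxidized peroxiredoxins, at chr2:152105516-152111376 on the plus strand. It had 88.6, 97.8, 83.1 and 78.3 CPM in control tumors 1 to 4, 74.4, 79.9, 84.8 and 100.5 CPM in sunitinib tumors 5, 6, 8 and 12, and 74.3, 64.0, 72.1 and 70.9 CPM in R+S tumors 4, 5, 7 and 10. Every R+S tumor was below every control and every sunitinib tumor, though R+S tumor 4 and sunitinib tumor 5 were almost equal. The log2 fold change was -0.31 against control (95% interval -0.56 to -0.05) and -0.27 against sunitinib (-0.52 to -0.02), with adjusted p of 0.162 and 0.138 in edgeR's quasi-likelihood test and an exact permutation p of 0.0286 in both. Neither passed the adjusted threshold, and with only the 8 tumors of R+S and control in the fit the first had an adjusted p of 0.0453. Sunitinib versus control gave -0.03 (-0.29 to 0.22).

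Prdx1 encodes peroxiredoxin 1, a cytosolic enzyme that reduces hydrogen peroxide with electrons from thioredoxin, at chr4:116685544-116700822 on the plus strand. Control tumors 1 to 4 had 239.8, 360.5, 327 and 284 CPM, sunitinib tumors 5, 6, 8 and 12 had 276, 351, 382 and 307 CPM, and R+S tumors 4, 5, 7 and 10 had 228, 194, 218 and 255 CPM. All R+S tumors were below all sunitinib tumors, and control tumor 1 alone among the controls overlapped with them. The log2 fold change of R+S versus sunitinib was -0.56 (SE 0.15, 95% interval -0.89 to -0.22) with an adjusted p of 0.0502 in edgeR's quasi-likelihood test, just short of the threshold, and an exact permutation p of 0.0286. It passed in 7 of 18 alternative analyses, among them DESeq2 (adjusted p = 0.00788) and the omission of sunitinib tumor 5 (0.024), and the adjusted p ranged from 0.00788 to 0.145. Against control the log2 fold change was -0.44 with R+S (-0.77 to -0.10, adjusted p = 0.139) and 0.12 with sunitinib (-0.21 to 0.46, adjusted p = 0.696). Since 8.29% of its 50-base words occur in 39 other genes, part of its reads may not have been counted.

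G6pdx encodes glucose-6-phosphate dehydrogenase, the entry of the pentose phosphate pathway and a source of NADPH, at chrX:74409483-74429194 on the minus strand. It ranged from 21.4 to 32.1 CPM in the controls, 24.9 to 29.4 CPM in the sunitinib tumors and 20.99 to 25.3 CPM in the R+S tumors, with overlap between all groups. Log2 fold changes were -0.02 (95% interval -0.32 to 0.28), -0.22 (-0.52 to 0.08) and -0.20 (-0.50 to 0.10) in sunitinib versus control, R+S versus control and R+S versus sunitinib, with adjusted p of 0.946, 0.395 and 0.344 in edgeR's quasi-likelihood test. Its transcripts share 6.46% of their 50-base words with G6pd2, and Ikbkg overlaps it on the other strand.

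**Figure D3:**
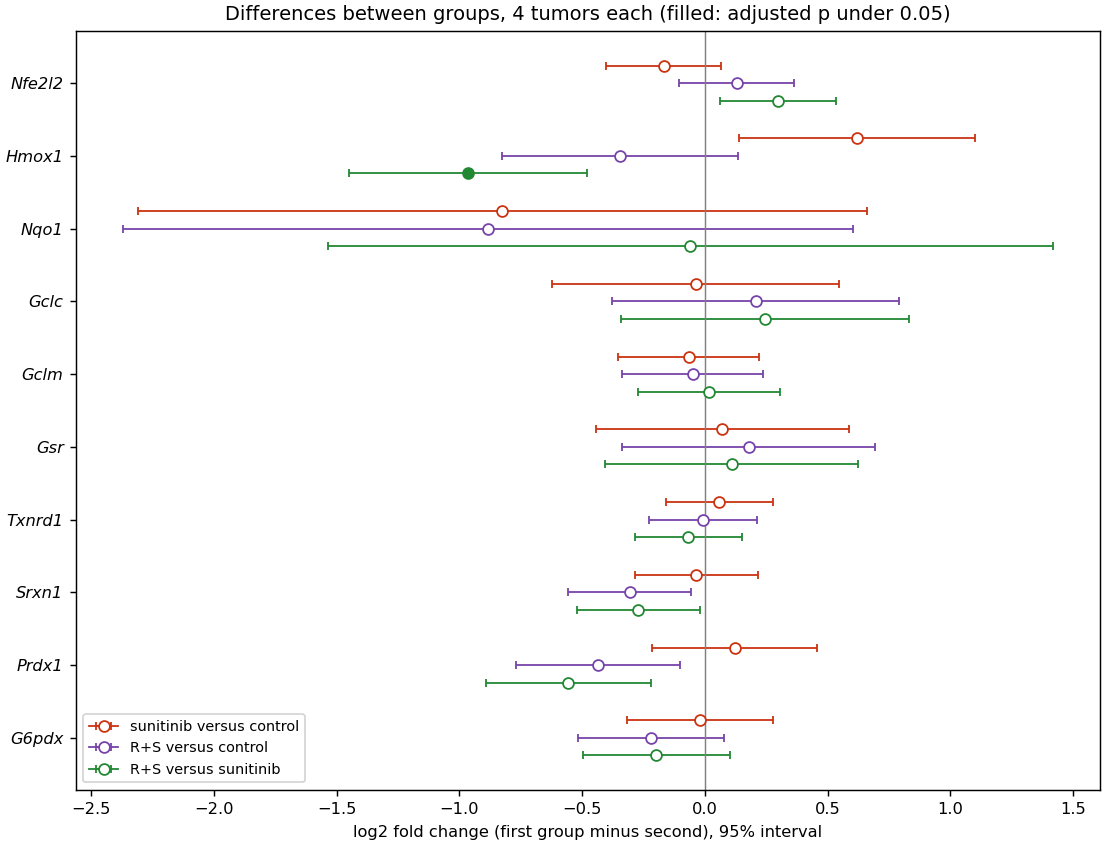
Log2 fold changes (x axis, first group minus second) of the 10 genes (y axis) in the 3 comparisons (colors), 4 tumors in each group, with 95% intervals as bars and a filled point for an adjusted p under 0.05. The 1 filled point is Hmox1 in R+S versus sunitinib at -0.97, and the widest intervals are those of Nqo1.

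The sunitinib tumors, 4 of the 12, held 5 of the 10 lowest and 5 of the 10 highest levels. The same count was not made over all genes. Sunitinib tumor 12 was the lowest of the 12 tumors for 3 genes (Nfe2l2, Gclc and Gclm) and the highest for 2 (Gsr and Srxn1), and sunitinib tumor 6 was the lowest for 2 (Nqo1 and Gsr) and the highest for 2 (Hmox1 and Gclm). In both tumors some of the genes were thus at their lowest and others at their highest. The median SD of log2 CPM over the 10 genes was 0.20 in the controls, 0.23 in the sunitinib tumors and 0.11 in the R+S tumors, against 0.24, 0.43 and 0.21 over all genes tested. The SD was larger among sunitinib than among control tumors for 7 of 10 genes and for 80.9% of all genes, and larger among R+S than control tumors for 3 of 10 genes and for 44.0% of all genes.

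Of 74 further genes in 7 lists of the same pathways, 72 passed the filter on low counts. With sunitinib versus control, 3 of the 72 rose and 0 fell, where 1.93% and 2.55% of all genes did, with a median log2 fold change of 0.13. With R+S versus control, 0 rose and 2 fell, where 1.55% and 2.61% of all genes did, with a median of -0.15. With R+S versus sunitinib, 2 rose and 6 fell, where 2.63% and 4.58% of all genes did, with a median of -0.28. Of the 72 genes, 14, 12 and 27 had an unadjusted p under 0.05 in these comparisons in edgeR, against 19.5%, 20.1% and 30.4% of all genes. DESeq2 called 4 of the 72 higher and 1 lower, 0 higher and 4 lower, and 2 higher and 16 lower, where it called 1477, 1688 and 3045 of all 16645 genes. These totals hold both directions together, so they give no share for the higher or the lower direction alone. Without sunitinib tumor 6, the tumor with the lowest beta-cell sum, the counts were 3 and 0 against control and 2 and 9 in R+S versus sunitinib. Other single omissions moved them more: in R+S versus sunitinib the number that fell was 0 without any 1 of the R+S tumors or without sunitinib tumor 12, 2 without sunitinib tumor 8 and 14 without sunitinib tumor 5, and the number that rose was 0 without R+S tumor 4, 5 or 7 and 1 without R+S tumor 10 or sunitinib tumor 8 or 12. In sunitinib versus control the number that rose was 0 without control tumor 3 or 4 and 1 without control tumor 1 or 2 or sunitinib tumor 8 or 12. Against control, the number that fell with R+S was 0 without control tumor 2, 3 or 4 or R+S tumor 4, 5 or 7 and 1 without R+S tumor 10.

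Among the 15 thioredoxins, peroxiredoxins and sestrins, 2 rose with sunitinib versus control, 1 fell with R+S versus control, and 1 rose and 4 fell with R+S versus sunitinib. The shares of all genes were 1.93%, 2.61%, 2.63% and 4.58% in the same order. Prdx4, the peroxiredoxin of the endoplasmic reticulum, had 74.8, 101, 76.0 and 84.6 CPM in control tumors 1 to 4, 122, 211, 139.9 and 159 CPM in sunitinib tumors 5, 6, 8 and 12 and 128, 86.0, 88.1 and 71.4 CPM in R+S tumors 4, 5, 7 and 10. All sunitinib tumors were above all controls, and R+S tumor 4 was the only R+S tumor within their range. Prdx4 rose by 0.91 (SE 0.20, adjusted p = 0.0272) with sunitinib versus control and fell by 0.76 (SE 0.20, adjusted p = 0.0474) with R+S versus sunitinib on the log2 scale in edgeR's quasi-likelihood test.

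Msrb1, a selenoprotein that repairs oxidized methionine, rose by 0.65 (adjusted p = 0.0452 by edgeR) with sunitinib versus control, from 13.1 to 17.97 CPM in the controls to 21.1 to 31.6 CPM, and fell by 0.71 (adjusted p = 0.0328) with R+S versus sunitinib, to 13.9 to 16.8 CPM. Txn1, the cytosolic thioredoxin, fell by 0.89 (adjusted p = 0.0402) with R+S versus control, from 133 to 211 CPM to 67.7 to 127 CPM, and its difference from sunitinib was -0.74 (adjusted p = 0.0565). The mitochondrial thioredoxin Txn2 fell by 0.59 (adjusted p = 0.0388) and the cytosolic peroxiredoxin Prdx2 fell by 0.75 (adjusted p = 0.0425) with R+S versus sunitinib. Sesn1, a sestrin that restrains mTOR complex 1, rose by 0.65 (adjusted p = 0.0277) in that comparison, from 44.2 to 53.2 CPM to 63.4 to 87.2 CPM.

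Of the 8 NADPH-supply genes, Pgls, the second enzyme of the pentose phosphate pathway, rose by 0.78 (adjusted p = 0.0483 by edgeR) with sunitinib versus control and fell by 0.74 (adjusted p = 0.0463) with R+S versus sunitinib. Its level was 36.1 to 48.3 CPM in the controls, 60.1 to 115 CPM in the sunitinib tumors and 43.1 to 50.04 CPM in the R+S tumors. Tkt, a transketolase of the same pathway, fell by 0.87 (adjusted p = 0.0314) with R+S versus sunitinib, from 103 to 197 CPM to 67.7 to 86.2 CPM. The other 6 genes of the list passed in no comparison, as did G6pdx.

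Of the 20 genes of glutathione synthesis, use and transport, 1 passed: Gpx8, a glutathione peroxidase of the endoplasmic reticulum, fell by 0.88 (adjusted p = 0.0471 by edgeR) with R+S versus control, from 3.81 to 6.29 CPM to 2.33 to 2.94 CPM. Among the 8 genes of heme and iron handling, Fech, which inserts iron into protoporphyrin to form heme, rose by 0.49 (adjusted p = 0.0328) with R+S versus sunitinib, from 35.1 to 43.9 CPM to 49.0 to 65.2 CPM. In that comparison 6 of the 8 genes had negative log2 fold changes, and the median of the list was -0.26. None of the 4 genes for superoxide dismutases and catalase, and none of the 8 tested of 10 other NRF2-responsive enzymes, passed in any comparison in edgeR's quasi-likelihood test. An unadjusted p under 0.05 was found for 0, 0 and 0 of the former and 1, 3 and 1 of the latter. Of all genes, 19.5%, 20.1% and 30.4% had one in sunitinib versus control, R+S versus control and R+S versus sunitinib.

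Each of these 10 pathway genes lost at least 1 of its calls when single tumors were left out. The adjusted p over 18 alternatives reached 0.0958 for Prdx4 and 0.157 for Msrb1 and 0.165 for Pgls with sunitinib versus control, 0.16 for Gpx8 and 0.128 for Txn1 with R+S versus control, and 0.0994 to 0.131 for the 8 genes called in R+S versus sunitinib, and no fold change turned its direction. Leaving out R+S tumor 4, 5 or 7 ended all 8 calls of the last comparison. Of the HIF targets, the 6 with the smallest adjusted p are named. Slc16a3, the lactate exporter, rose by 3.82, Ak4 by 4.89, Ankrd37 by 2.34, Pdk1 by 1.52 and Pgk1 by 1.79 with sunitinib versus control on the log2 scale, and all 5 passed in 18 of 18 alternatives. Egln1, an oxygen sensor that marks HIF for degradation, rose by 0.58 and passed in 12 of 18. Calls of HIF targets were also lost in the other comparisons: with R+S versus control Ak4 passed in 11, Ankrd37 in 11, Pdk1 in 12 and Egln1 in 18 of 18 alternatives, and with R+S versus sunitinib Slc16a3 passed in 13, Ak4 in 10 and Pgk1 in 13.

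**Figure D4:**
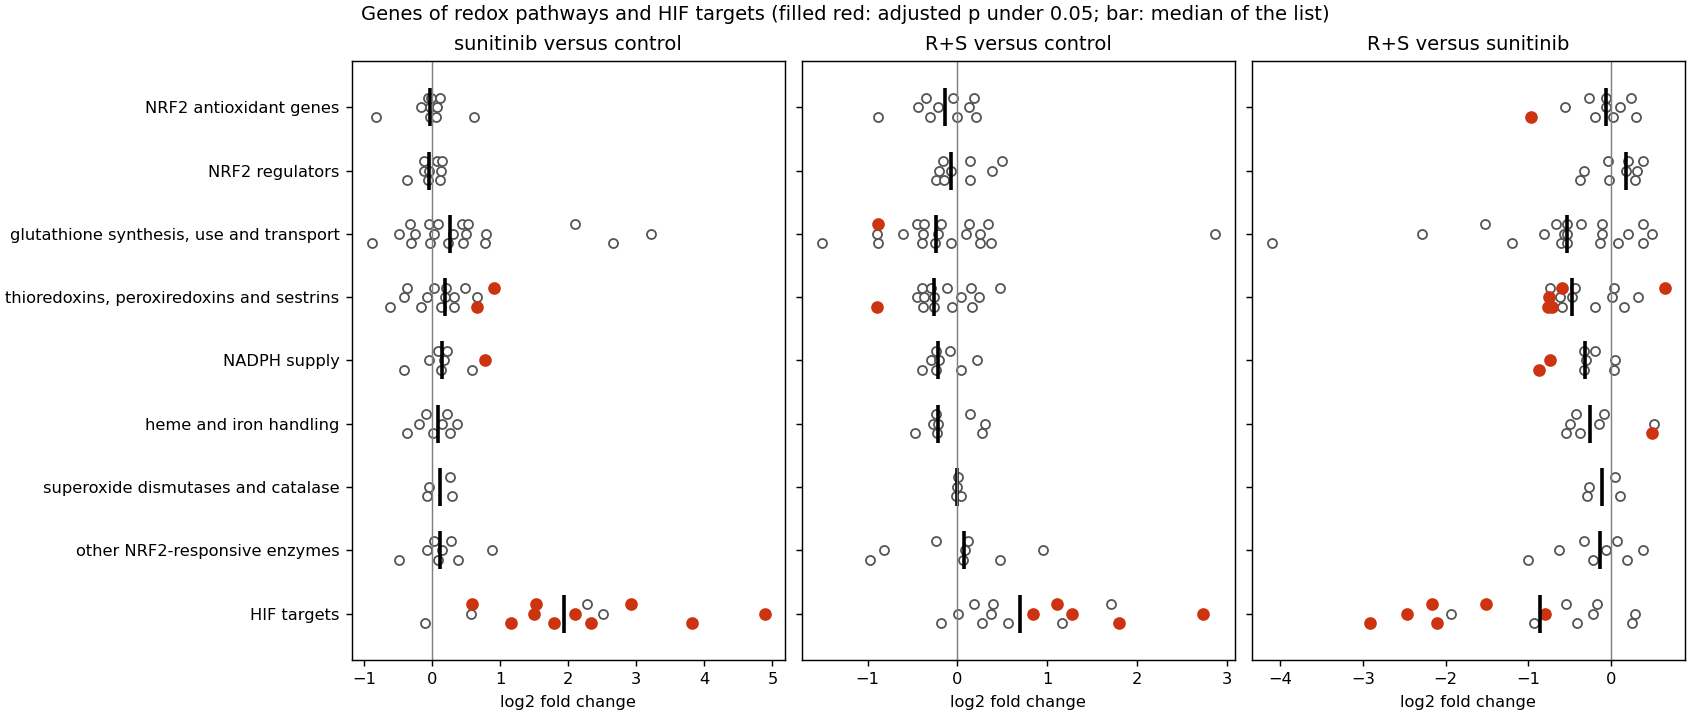
Log2 fold changes (x axes) of the 10 genes, the genes of 7 further redox lists and the HIF targets (y axis) in the 3 comparisons (panels), with the median of each list as a bar and adjusted p under 0.05 filled in red. Medians of the 8 redox groups lie between -0.04 and 0.27 with sunitinib versus control and below 0 in 7 of 8 with R+S versus sunitinib, while the HIF targets have medians of 1.94, 0.70 and -0.86.

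**Figure D5:**
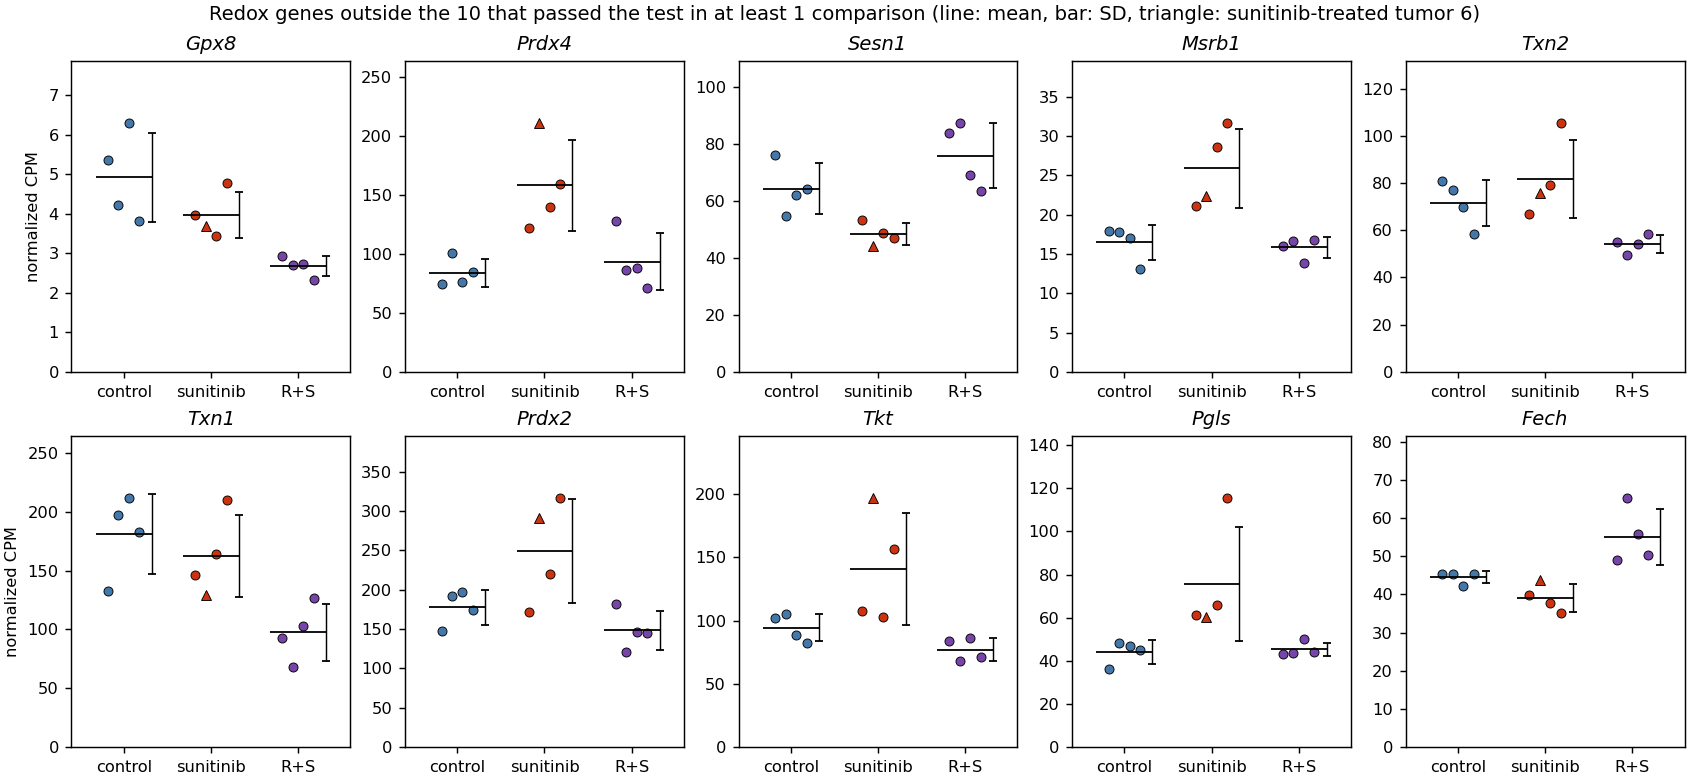
Normalized CPM (y axis, linear from 0) of the 10 further redox genes that passed the test in at least 1 comparison, in each tumor of the 3 groups (x axis), with the mean as a line, the SD as a bar and sunitinib tumor 6 as a triangle. Prdx4, Msrb1 and Pgls are higher in all 4 sunitinib tumors than in all 4 controls, and Txn1 and Gpx8 are lower in all 4 R+S tumors than in all 4 controls.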

How the data were processed

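The authors deposited read counts per gene for each tumor, as whole numbers without scaling. The submitters' processing notes name cutadapt 1.2.1, TopHat2 2.0.9, HTSeq 0.5.4p3 and GRCm38. The annotation release and strand setting are not given in the sources used here. The libraries were stranded and made from mRNA. The 5 summary lines of each table were left out.

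Gene symbols, coordinates (GRCm38) and exon lengths came from GENCODE M21, which named 37607 of 38924 identifiers. Genes were kept by filterByExpr (minimum count 10, total 15). Counts were TMM-normalized and tested by edgeR 4.0.16 (R 4.3.3, limma 3.58.1) with robust quasi-likelihood F-tests in 1 fit of all 12 tumors, with no covariates. P-values were adjusted over 16645 genes within each comparison, with a threshold of 0.05. The SE is the absolute log2 fold change over the square root of F, and a prior count of 2 entered log2 CPM. Exact permutation tests (two-sided) compared mean log2 CPM over 70 arrangements, with no adjustment over genes. Groups without overlap always give the smallest p of this test, so for them it adds nothing to the lack of overlap. No pair of tumors within a group differed by as little as sampling noise. PCR copies were not marked. Depth was 31872342 to 44215054 counts per tumor.

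All 10 genes were named. From the pathway lists and HIF targets, up to 6 genes per list with an adjusted p under 0.05 in any comparison were named. The genes and lists were chosen with earlier results of these data known. On simulated counts of 16512 genes, sunitinib versus control called 40 of 100 genes shifted by a log2 value of 1, 87 of 100 shifted by 2 and 12 that had not been shifted. The simulated tumors of a group shared a common mean for each gene, and none stood apart as sunitinib tumor 6 did. The counts of the simulation are therefore not the sensitivity of the comparison of the real tumors. Alternatives were DESeq2 1.42.0, other scalings and filters, no robust estimation, acinar markers left out, only the 8 tumors compared, treated tumors with 1 title prefix summed and single tumors left out. The control tumors share a prefix but were kept separate when treated tumors were summed.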

Additional observations from a re-analysis of the deposited data

How the results depend on the processing

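No paired analysis was possible because the labels give no pairing of tumors between groups. The causes of the shifts below were not tested. Fits with fewer tumors have fewer degrees of freedom, and some of them called more genes and others fewer. The count of all genes called in sunitinib versus control (745) was 408 with at least 10 counts in every tumor, 1477 by DESeq2, 380 with only the 8 tumors compared and 440 (without control tumor 3) to 902 with single tumors left out, 474 without control tumor 4. In R+S versus control (693) it was 1688 by DESeq2, 2557 with only the 8 tumors and 292 to 621 with single tumors left out, at most 393 of these without control tumor 2, 3 or 4 or R+S tumor 4, 5 or 7. In R+S versus sunitinib (1200) it was 3045 by DESeq2, 501 with no filter and 3 with only the 8 tumors. With single tumors left out it ranged from 0 without R+S tumor 5, where 3870 genes had an unadjusted p under 0.05, to 2861 without sunitinib tumor 5, and it was 1 without R+S tumor 4 or 7, 314 without R+S tumor 10, 586 without sunitinib tumor 12 and 730 without sunitinib tumor 8.

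Of the 10 antioxidant genes, 0 were called in sunitinib versus control in any alternative. With R+S versus control, 2 were lower with only the 8 tumors (Nqo1 and Srxn1) and 0 otherwise. With R+S versus sunitinib, the number lower (1) was 2, Hmox1 and Prdx1, with acinar markers left out, at least 10 counts in every tumor, DESeq2, library size only, RLE factors or upper-quartile factors, 0 with only the 8 tumors and 0 to 2 with single tumors left out. DESeq2 called 1 gene higher, Nfe2l2. Treated tumors of 1 prefix were also summed, with the control tumors kept separate. The direction then turned for Srxn1 (0.059) and G6pdx (0.025) in sunitinib versus control and for Nqo1 (0.17) and Gsr (-0.034) in R+S versus sunitinib. Gclm in R+S versus sunitinib turned to -0.0047, -0.00034 and -0.0048 with acinar markers left out, at least 10 counts in every tumor and upper-quartile factors. Single omissions also turned it in sunitinib versus control for Gclc (-0.24 to 0.20), Gclm (-0.15 to 0.039), Gsr (-0.086 to 0.28), Srxn1 (-0.13 to 0.037) and G6pdx (-0.12 to 0.063), in R+S versus control for Gclm (-0.11 to 0.0067) and Txnrd1 (-0.046 to 0.072), and in R+S versus sunitinib for Nqo1 (-0.45 to 0.40), Gclm (-0.087 to 0.10) and Gsr (-0.094 to 0.27). None of these was called. Hmox1 in R+S versus sunitinib ranged from -1.13 to -0.84 and passed in 12 of 18 alternatives.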

Other observations

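Gpx3, the secreted glutathione peroxidase, was picked after its values were seen, for sunitinib tumor 6. That tumor had 1598 CPM, whereas the other 11 tumors ranged from 19.4 to 88.6 CPM. By edgeR's quasi-likelihood test Gpx3 had an adjusted p of 0.136 in sunitinib versus control and 0.0521 in R+S versus sunitinib, and neither passed. The same tumor had the lowest Nqo1 level of all (3.68 CPM), the highest Hmox1 level (90.9 CPM) and the lowest beta-cell marker sum (8744 CPM), although its Chgb level (4075 CPM) was above every control. Whether its makeup of cells had a part in these levels was not tested.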
